A study of Mus musculus with 12 samples.

Results

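The genes described here are 10 cytosolic and mitochondrial heat shock protein genes of the mouse, chosen by name among the 33625 genes of the deposited table: Hspa1a, Hspa1b, Hspa8, Hsph1, Dnaja1, Dnajb1, Hsp90aa1, Hsp90ab1, Hspd1 and Hspe1. All 10 were found as known genes. They were read in MODE-K cells, a wild-type mouse epithelial line of small-intestinal origin, exposed in culture to gamma rays from a 60Co source. The groups were control (0 Gy, collected at 0 h), 4Gy_48h (4 Gy, 48 h), 12Gy_24h (12 Gy, 24 h) and 12Gy_48h (12 Gy, 48 h), with 3 libraries each. The only control was collected at 0 h, so time in culture and irradiation cannot be told apart in any comparison with it. The labels speak of parallel groups at each dose and name no separate cultures, so the p-values here cover only a library-to-library spread that could be technical. The labels describe cells kept in DMEM with 10% fetal bovine serum and total RNA taken with Trizol, and all groups share the 1 line and its wild-type genotype.

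Heat shock proteins include chaperones that bind unfolded or partly folded proteins to help them fold, to hold them or to pass them on. Many of them, but not all, use ATP. Hsp70 proteins take up clients with the help of J-domain partners and give up ADP with the help of exchange factors such as Hsp110, and Hsp90 takes over late folding steps of kinases and receptors. Hsp60 and Hsp10 form the folding chamber of the mitochondrial matrix, and many of these genes are known targets of heat shock factor 1, which binds repeats of the letters GAA and their complement TTC.

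Library totals ran from 3616416 to 4831641 reads, and no 2 libraries of a group agreed within counting noise. Values are in CPM, a gene's reads scaled to the size of its library, after TMM scaling over all genes, in the order of replicates 1, 2 and 3. Where 3 values against control are given together, they stand in the order 4Gy_48h, 12Gy_24h, 12Gy_48h. A difference passed at an adjusted p under 0.05 in edgeR's quasi-likelihood test over 15086 genes. The share of reads on unannotated loci, which carry an ONT name and no known-gene entry in the deposited table, was 21.0% ± 1.03 (SD, n = 3) in control and, in the irradiated groups in that order, 15.8% ± 0.947, 11.9% ± 0.0571 and 14.7% ± 0.606, with no irradiated library reaching the lowest control. Beside it, the median log2 fold change of all known genes against control was 0.14, 0.23 and 0.20. In a fit to known genes alone it was -0.01, 0.00 and 0.01, a value that TMM scaling over those genes sets near 0. Which of the 2 fits is the better baseline was not tested. A change in a known gene therefore has to be read against the shift in the fit to all genes. The value from the fit to known genes alone, called the known-gene value, stands beside it. The part of the changing read shares in any single result was not tested. In bulk RNA a change in the mix of cells and a change in RNA per cell cannot be told apart. As a check of the label, the epithelial markers were sparse. Of 10, 2 reached a mean of 1 CPM, Krt20 (4.23 to 15.8 CPM) and Krt18 (1.32 to 16.2). Cldn3 and Cldn7 had no read, and Epcam had 2 reads. The list's summed level was 7.67 to 11.9 CPM in control and 11.2 to 16.6, 18.5 to 24.6 and 23.2 to 23.8 CPM in the irradiated groups in the order given. The part of this difference in the results was not tested. An epithelial identity is therefore taken from the label, not from these values. The fibroblast list summed to 691 to 1119 CPM in control and to 1241 to 1724, 2277 to 2723 and 1473 to 2010 in the irradiated groups in the order given. In it 5 of 10 genes reached a mean of 1 CPM, with Vim at 498 to 2408 CPM, Col1a2 at 172 to 325 and Col1a1 at 6.62 to 17.7. Lum had no read, and the part of this list in the results was not tested. Of 9 intestinal lineage markers, Lgr5, Olfm4, Muc2, Alpi and Cdx1 had no read, and among 8 immune markers Ptprc, Cd3e and Adgre1 had none. The immune list summed to 23.8 to 29.7 CPM in control, to 19.1 to 24.3 in 4Gy_48h and 25.8 to 39.7 in 12Gy_24h, which both overlapped control, and to 45.8 to 54.0 in 12Gy_48h, and its part in the results was not tested.

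The start regions of 7 members were available from RefSeq (GRCm38.p6), and they are shown for the letters that heat shock factor 1 is known to bind. No window was available for Hspa8, Hsp90aa1 or Hsp90ab1, so these genes were not searched. Searched on both strands, GAANNTTCNNGAA or TTCNNGAANNTTC, a run of 3 such units, stood in 198 of 32851 RefSeq start windows of 300 bases (0.603%). The shorter GAANNTTC or TTCNNGAA, which every longer run contains, stood in 15.1% of them. Capitals mark these letters in the sequences that follow, each read 5′ to 3′ on the strand of its gene.
Hspd1, chr1:55088053-55088082, minus strand: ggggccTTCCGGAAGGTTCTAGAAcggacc
Hspe1, chr1:55088053-55088082, plus strand: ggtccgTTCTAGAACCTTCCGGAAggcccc
Hsph1, chr5:149636280-149636308, minus strand: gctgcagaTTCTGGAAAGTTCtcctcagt
Dnaja1, chr4:40722333-40722362, plus strand: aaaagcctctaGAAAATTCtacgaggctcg
Hspa1a, chr17:34972223-34972290, minus strand: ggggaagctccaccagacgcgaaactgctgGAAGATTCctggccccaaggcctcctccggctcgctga
Hspa1b, chr17:34959305-34959372, minus strand: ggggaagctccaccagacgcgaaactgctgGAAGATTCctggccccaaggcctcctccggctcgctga

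Hspd1 and Hspe1 share 1 run of these letters, read from opposite strands, because the genes lie head to head on chromosome 1. Their annotated 5′ ends overlap by 112 bases (55088132 to 55088243), and the shared run lies outside this overlap. In Hsph1 the longer letters lie after the start site. A shorter run of Hsph1, not printed here, lies 33 or 54 bases before the start site, depending on the window. Dnaja1 (in 1 of 3 windows), Hspa1a and Hspa1b hold the shorter letters only, and Dnajb1 held neither in its windows. Hspd1 held the letters in 1 of 2 windows. Start sites here are those of the RefSeq windows, and the runs of Hspd1 and Dnaja1 lie before them. By GENCODE, whose genes start further upstream than these sites, the runs of Hspd1, Dnaja1 and Hsph1 lie inside the genes. The printed stretches of these genes overlap their annotated exons. The Hspa1a and Hspa1b stretches are letter for letter alike, and their whole windows differed at 4 of 300 positions. A match is a description of letters, not of binding.

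Among the Hsp70 genes, the stress-inducible copies Hspa1a and Hspa1b had almost no reads in any group. Hspa1a had 3 reads in all 12 libraries together, with at most 2 in any library, and Hspa1b had 10, with at most 3. The level that 3 reads stand for, taken here as a floor, was 0.621 to 0.830 CPM. Levels under that rest on fewer reads and could not be measured surely, and neither gene entered the test. Their coding sequences were 99.6% identical (8 mismatches over 1926 bases), so reads between them may not be assigned surely. Hspa1a also overlaps the gene Gm20481 on the other strand.

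Hspa8 is the constitutive Hsp70 of the cytosol (chromosome 9, 40800984 to 40810087 in GRCm38). Counted without the unannotated locus described next, it had the largest log2 fold change of the 8 tested members in each comparison with control. It read 165, 145 and 124 CPM in control, 337, 243 and 265 in 4Gy_48h, 420, 397 and 360 in 12Gy_24h, and 340, 380 and 397 in 12Gy_48h. Every irradiated library was above every control library, and the 2 groups given 12 Gy overlapped. Against control it rose by 0.96 ± 0.13, 1.44 ± 0.13 and 1.36 ± 0.13 (log2, SE), with adjusted p of 0.000215, 2.95e-07 and 3.63e-06. The known-gene values were 0.82, 1.21 and 1.18 and passed in each comparison, also when any single library was left out. Small nucleolar RNA genes (Snord14c, Snord14d and Snord14e) lie within Hspa8 on the same strand. At 48 h it was 0.40 ± 0.13 higher after 12 Gy than after 4 Gy, which did not pass (adjusted p = 0.0866), though the groups did not overlap.

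More reads with a Hspa8 match lay on an unannotated locus than on Hspa8. This locus, ONT.15722, whose best Swiss-Prot match in the deposited table is Hspa8, had 51564 reads against 13628 for Hspa8 itself. It read 723, 694 and 595 CPM of the library total in control, 1165, 1165 and 959 in 4Gy_48h, 1173, 1251 and 1494 in 12Gy_24h, and 1331, 1392 and 1451 in 12Gy_48h. The locus, like Hspa8, was higher in every irradiated library than in every control library. It rose by 0.71 ± 0.12, 1.05 ± 0.12 and 0.97 ± 0.12 (log2, SE), with adjusted p of 0.000594, 1.66e-06 and 1.78e-05. Hspa8 held 17.6% ± 0.518 (SD, n = 3) of the reads of both in control and 20.3% ± 2.58, 22.2% ± 3.84 and 22.0% ± 0.685 after irradiation, a difference that was not tested. No coordinates in the sources used here link the locus to Hspa8, and it shares its KEGG entry with Hspa1a and Hspa1b too. Whether the sum is the level of Hspa8 was therefore not tested. Summed with the locus, Hspa8 rose by 0.76, 1.13 and 1.05, with adjusted p of 0.000213, 3.12e-07 and 4.59e-06. At 12Gy_24h this summed value lay below the 1.33 of Hsp90ab1, so Hspa8 did not rank first there once the locus was added.

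**Figure D1:**
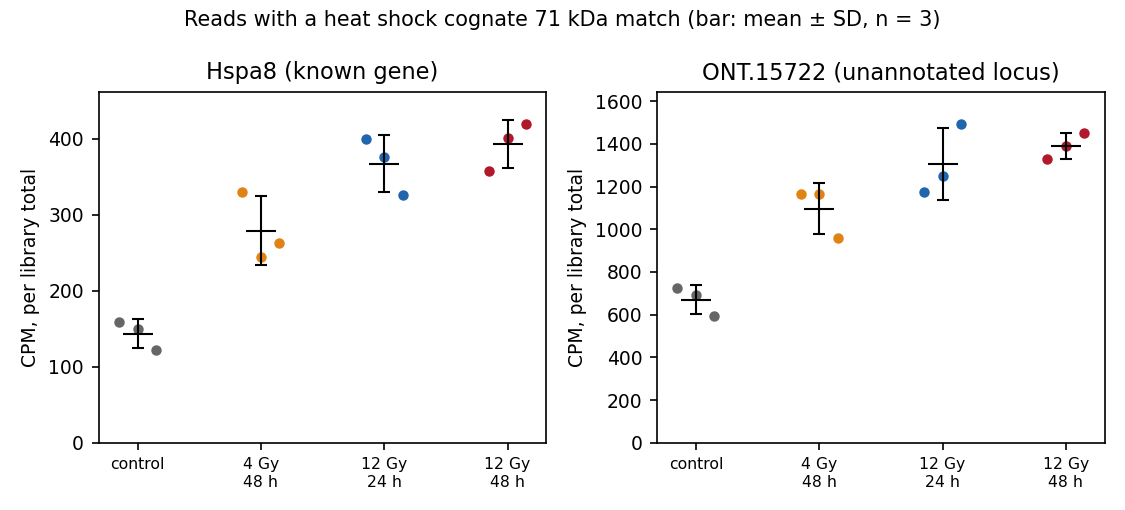
CPM of the library total for Hspa8 (left) and for ONT.15722, the unannotated locus with a Hspa8 match (right), in each group. Points are libraries, bars are the mean ± SD of 3, and control libraries lie below all irradiated libraries in both panels.

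The Hsp110 gene Hsph1, whose protein frees Hsp70 of ADP, passed in both fits at 12Gy_48h. It read 36.3, 56.3 and 50.1 CPM in control, 70.1, 67.9 and 59.6 in 4Gy_48h, 66.9, 57.6 and 73.2 in 12Gy_24h, and 78.0, 92.7 and 81.5 in 12Gy_48h. The 12Gy_48h libraries were above all others. It rose by 0.83 ± 0.16 (log2, SE) at 12Gy_48h (adjusted p = 0.000795, known-gene value 0.64 with 0.00908, or 0.0545 without 12Gy_48h replicate 2). Rises of 0.47 at 4Gy_48h (adjusted p = 0.0464) and at 12Gy_24h (0.0198) were lost among known genes alone, where the values were 0.32 (adjusted p = 0.327) and 0.23 (0.321). Among all genes the first was also lost without control replicate 1 or 3 or 4Gy_48h replicate 1 or 2 (up to 0.130) and the second without control replicate 1 (0.0732). At 12Gy_48h it was 0.35 above both 12Gy_24h and 4Gy_48h, which did not pass (adjusted p = 0.0907 and 0.195).

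Dnaja1 and Dnajb1 encode J-domain proteins, which bring clients to Hsp70 and start its ATP cycle. Dnaja1 read 191, 254 and 238 CPM in control, 267, 248 and 262 in 4Gy_48h, 295, 283 and 362 in 12Gy_24h, and 322, 367 and 397 in 12Gy_48h. The 12Gy_48h libraries lay above control and 4Gy_48h and overlapped 12Gy_24h. It rose by 0.67 ± 0.13 at 12Gy_48h (adjusted p = 0.000786, known-gene value 0.48 with 0.0150, lost without 12Gy_48h replicate 2 or 3, up to 0.0687) and by 0.46 ± 0.13 at 12Gy_24h (0.00599), the second lost among known genes alone (0.22, adjusted p = 0.238). At 48 h it was 0.48 ± 0.13 higher after 12 Gy than after 4 Gy (adjusted p = 0.0387), a call lost when any 1 library of those groups was left out (up to 0.144). At 4Gy_48h its 0.19 above control did not pass (0.334).

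Dnajb1, an inducible J-domain gene, read 24.7, 18.2 and 16.3 CPM in control, 24.4, 22.2 and 25.9 in 4Gy_48h, 29.5, 21.5 and 22.8 in 12Gy_24h, and 33.5, 44.8 and 26.9 in 12Gy_48h. The 12Gy_48h libraries were all above control, and the other irradiated groups overlapped it. It rose by 0.82 ± 0.20 at 12Gy_48h (adjusted p = 0.00494, known-gene value 0.63 with 0.0348). The known-gene call was lost without control replicate 2 or 3 or 12Gy_48h replicate 1 or 2 (up to 0.213). Its values of 0.28 and 0.31 at 4Gy_48h and 12Gy_24h did not pass. Against 12Gy_24h it was 0.51 ± 0.20 higher at 12Gy_48h (adjusted p = 0.0573), and its known-gene value of 0.56 passed (0.0409), but not without 12Gy_48h replicate 1 or 2 or 12Gy_24h replicate 2 or 3 (up to 0.255).

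Of the cytosolic Hsp90 genes, Hsp90ab1 rose in every comparison with control. Hsp90aa1 passed in none, in the fit to all genes or to known genes alone. Hsp90ab1, the constitutive one, read 830, 731 and 627 CPM in control, 1158, 1211 and 959 in 4Gy_48h, 1650, 1864 and 1995 in 12Gy_24h, and 1118, 1136 and 1308 in 12Gy_48h. All irradiated libraries exceeded all controls, and 12Gy_24h exceeded every other group. It rose by 0.60 ± 0.12, 1.33 ± 0.12 and 0.70 ± 0.12 (log2, SE), with adjusted p of 0.00195, 1.69e-07 and 0.000283. Known-gene values of 0.46, 1.10 and 0.52 passed too. The first (adjusted p = 0.0423) was lost without control replicate 2 or 3 or 4Gy_48h replicate 1 or 2 (up to 0.204). Between 24 h and 48 h after 12 Gy it fell by 0.63 ± 0.12 (adjusted p = 0.000762), and the known-gene value was -0.58 (0.000959).

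Hsp90aa1, the stress-inducible Hsp90, read 231, 282 and 274 CPM in control, 328, 308 and 315 in 4Gy_48h, 299, 303 and 327 in 12Gy_24h, and 304, 288 and 349 in 12Gy_48h. Irradiated libraries lay above controls in each group, by little. Its values of 0.27, 0.24 and 0.26 (log2) did not pass (adjusted p = 0.0858, 0.0739 and 0.0711), and the known-gene values were 0.12, 0.00075 and 0.07. Its value at 12Gy_24h passed without control replicate 2 or 3 or 12Gy_24h replicate 2 or 3 (down to 0.0182), and at 12Gy_48h without control replicate 2 or 12Gy_48h replicate 2 (down to 0.0371). With no filter on low genes it also passed at 12Gy_24h. The coding sequences of these genes were 76.8% identical.

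The ratio of Hsp90ab1 to Hsp90aa1 reads inside a library, which depends on no scaling, was 2.83 ± 0.683 (SD, n = 3) in control, 3.50 ± 0.443 at 4Gy_48h, 5.93 ± 0.349 at 12Gy_24h and 3.79 ± 0.143 at 12Gy_48h. The 12Gy_24h libraries, at 5.53 to 6.16, stood above all others, 12Gy_48h did not overlap control, and 4Gy_48h did. With 3 libraries against 3 an exact two-sided permutation test cannot go below p = 0.1, the value found for both 12 Gy groups against control. Adjusted over the 20 ratio comparisons made, that was 0.222. Those also took in Hsph1 to Hspa8 and Dnajb1 to Dnaja1. The ratio of Hsph1 to Hspa8 was lower at 12Gy_24h than in control (log2 difference -0.96) and higher at 12Gy_48h than at 12Gy_24h (0.43). In both the groups did not overlap (permutation p = 0.1, adjusted 0.222), and in its other comparisons they did. The ratio of Dnajb1 to Dnaja1 overlapped in every comparison (permutation p of 0.4 or more).

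Hspd1 and Hspe1 encode the chamber and the lid of mitochondrial Hsp60. Hspd1 read 739, 939 and 973 CPM in control, 1112, 1095 and 1099 in 4Gy_48h, 1115, 1127 and 1115 in 12Gy_24h, and 781, 712 and 717 in 12Gy_48h. It was lower at 12Gy_48h than in any library of the other irradiated groups and overlapped control. From 24 h to 48 h after 12 Gy it fell by 0.60 ± 0.10 (log2, SE; adjusted p = 0.000241), with a known-gene value of -0.55 (0.000768). At 48 h it was lower after 12 Gy than after 4 Gy, at -0.58 ± 0.10 (adjusted p = 0.00489, 0.0507 without 12Gy_48h replicate 2), with a known-gene value of -0.62 (0.00323).

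Against control, Hspd1 was higher at 4Gy_48h (0.32 ± 0.10, adjusted p = 0.0301) and 12Gy_24h (0.34 ± 0.10, 0.00743), the first lost without control replicate 1 or 4Gy_48h replicate 1 or 2 (up to 0.0752), but known-gene values of 0.17 and 0.10 did not pass. It was lower at 12Gy_48h (-0.26 ± 0.10, adjusted p = 0.0460), a call lost without any 1 of the 6 libraries but control replicate 1 (up to 0.295). The known-gene value was -0.45 (0.00536). The sign against control was thus positive in 2 groups and negative in the third, and the control library of replicate 1 was well below the other controls.

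Hspe1 read 1209, 1045 and 1199 CPM in control, 1149, 982 and 1175 in 4Gy_48h, 1100, 1086 and 1097 in 12Gy_24h, and 905, 915 and 821 in 12Gy_48h. The 12Gy_48h libraries lay below all of the others. Against control it fell by 0.39 ± 0.09 at 12Gy_48h (adjusted p = 0.00399, known-gene value -0.57 with 0.000619), and against 12Gy_24h it fell by 0.31 ± 0.09 (0.0154, known-gene value -0.26 with 0.0424). The second was lost without 12Gy_48h replicate 3 (0.0565), and its known-gene value without any 1 library of these groups (up to 0.136). Its values of -0.06 at 4Gy_48h and -0.07 at 12Gy_24h did not pass, and at 12Gy_24h the known-gene value of -0.31 did (0.0266), but not without control replicate 3 or any 1 of the 12Gy_24h libraries (up to 0.0923). Against 4Gy_48h its value at 12Gy_48h was -0.32, which did not pass (adjusted p = 0.0521), while the known-gene value of -0.37 did (0.0273), but not without any 1 library of these groups other than 4Gy_48h replicate 2 (up to 0.119).

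The ratio of Hspd1 to Hspe1 reads was 0.773 ± 0.147 (SD, n = 3) in control, 1.01 ± 0.0962 at 4Gy_48h, 1.02 ± 0.0137 at 12Gy_24h and 0.838 ± 0.0523 at 12Gy_48h. The 4Gy_48h and 12Gy_24h libraries lay above control and above 12Gy_48h without overlap (exact permutation p = 0.1, the smallest possible, adjusted 0.222). The strand used in counting is not given in the sources used here, so reads in the overlap of the genes cannot be told apart.

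**Figure D2:**
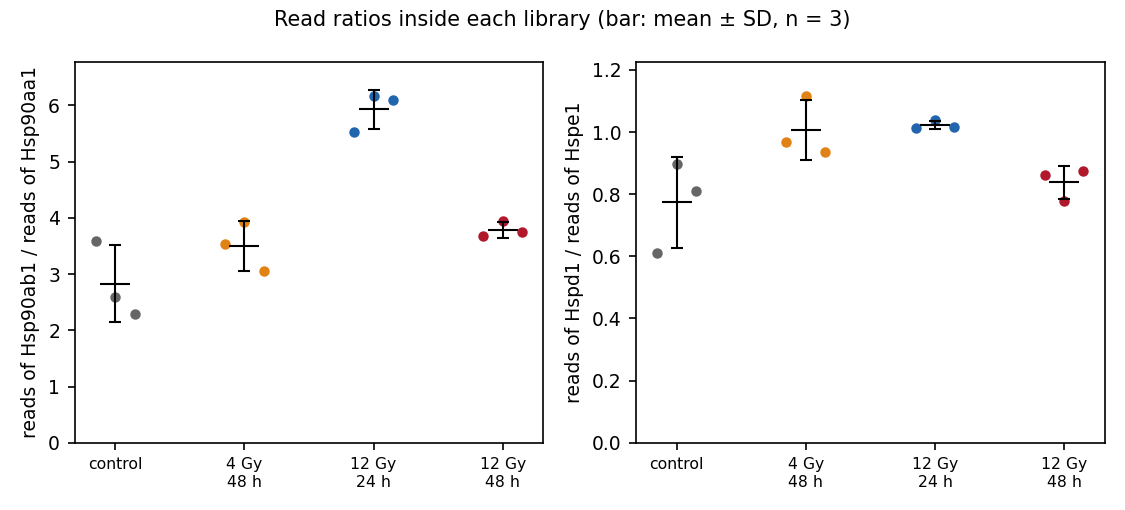
Reads of Hsp90ab1 per read of Hsp90aa1 (left) and of Hspd1 per read of Hspe1 (right) in each library, by group. Bars are the mean ± SD of 3, and the 12Gy_24h libraries are the highest for the Hsp90 pair.

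**Figure D3:**
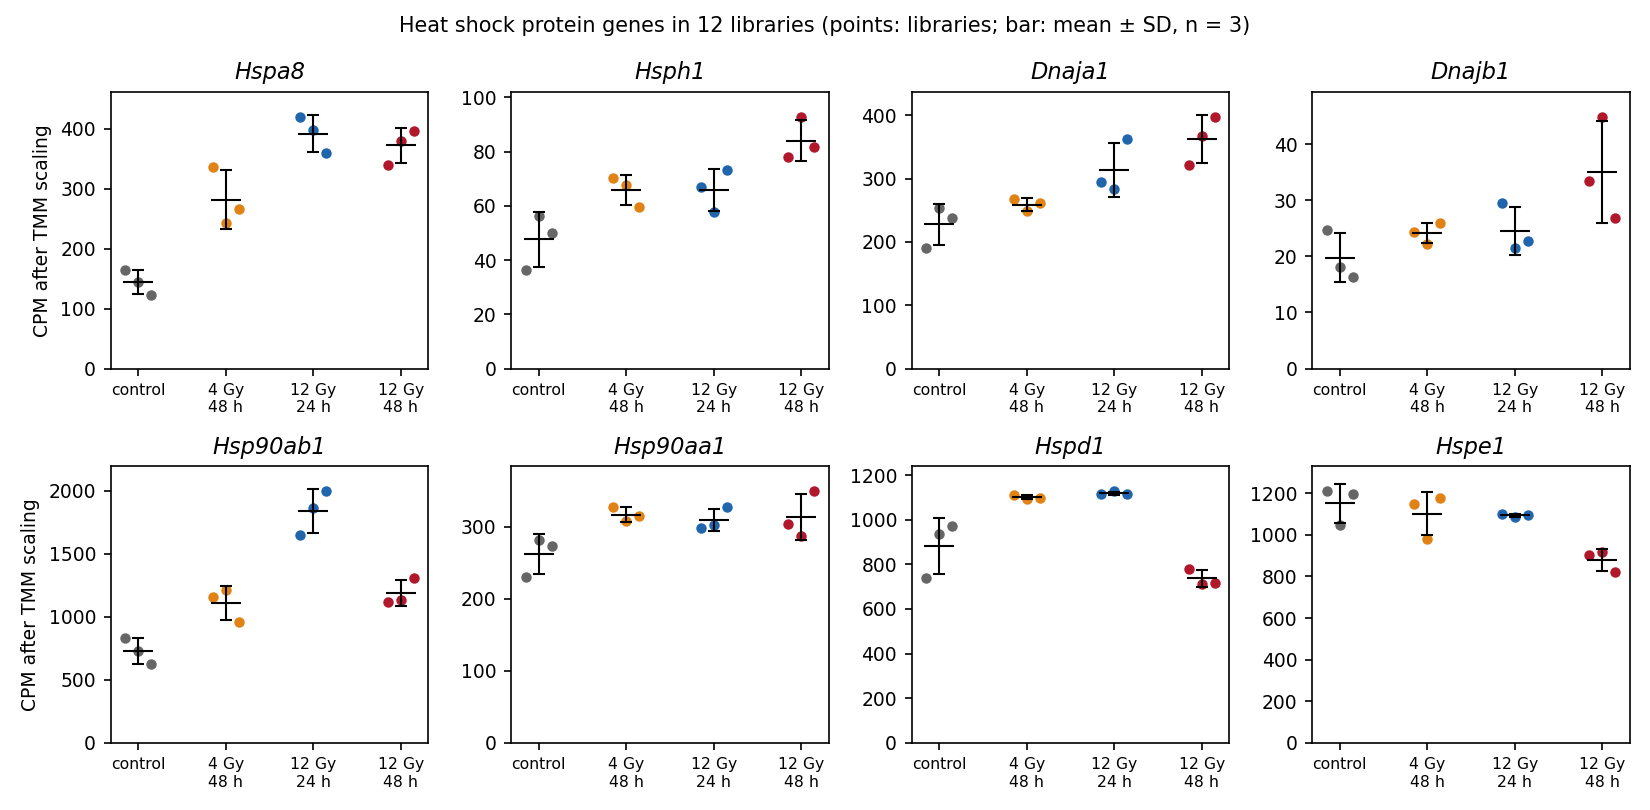
Level of the 8 tested members in each of the 12 libraries, in CPM after TMM scaling, with axes from 0 that differ between genes. Bars are the mean ± SD of 3: Hspa8 and Hsp90ab1 are above control in every irradiated group, and the lowest libraries of Hspe1 are those of 12Gy_48h.

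Counted over the members, 8 of 10 entered the test. At 4Gy_48h 4 were higher and 0 lower, where 4.53% of all genes tested were higher and 13.0% lower. Among known genes alone 2 members, Hspa8 and Hsp90ab1, were higher and 0 lower, beside 0.754% and 0.570% of known genes. At 12Gy_24h 5 were higher and 0 lower, beside 18.5% and 29.4% of genes, and with known genes alone 2 were higher and 1, Hspe1, lower, beside 9.15% and 7.91%. At 12Gy_48h 5 were higher and 2 lower, beside 12.9% and 20.2%, and the same numbers came from known genes alone, beside 6.76% and 8.04%. All members are known genes, while the shares of all genes include unannotated loci. In the fit to all genes, of 9809 known genes, 609 were higher and 86 lower at 4Gy_48h. These numbers were 2600 and 391 at 12Gy_24h, and 1790 and 367 at 12Gy_48h.

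For 12Gy_48h against 12Gy_24h, 0 members were higher and 3 lower, beside 20.6% and 11.4% of genes. Known genes alone gave 1 higher, Dnajb1, and 3 lower, beside 11.1% and 12.6%. For 12Gy_48h against 4Gy_48h 1 member was higher and 1 lower, beside 2.19% and 2.49%, and known genes alone gave 1 higher and 2 lower, beside 2.91% and 3.22%. In the fit to all genes, 978 of 9809 known genes were higher and 1534 lower between the times, and 274 and 152 between the doses. The median log2 fold change over the 8 members against control was 0.30, 0.40 and 0.69, and 0.15, 0.16 and 0.50 among known genes alone. The comparisons with control share its 3 libraries and are not independent of each other. Members' reads together made up 0.345% ± 0.0145 (SD, n = 3) of a control library and 0.423% ± 0.0127, 0.482% ± 0.00685 and 0.419% ± 0.0128 of an irradiated one.

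**Figure D4:**
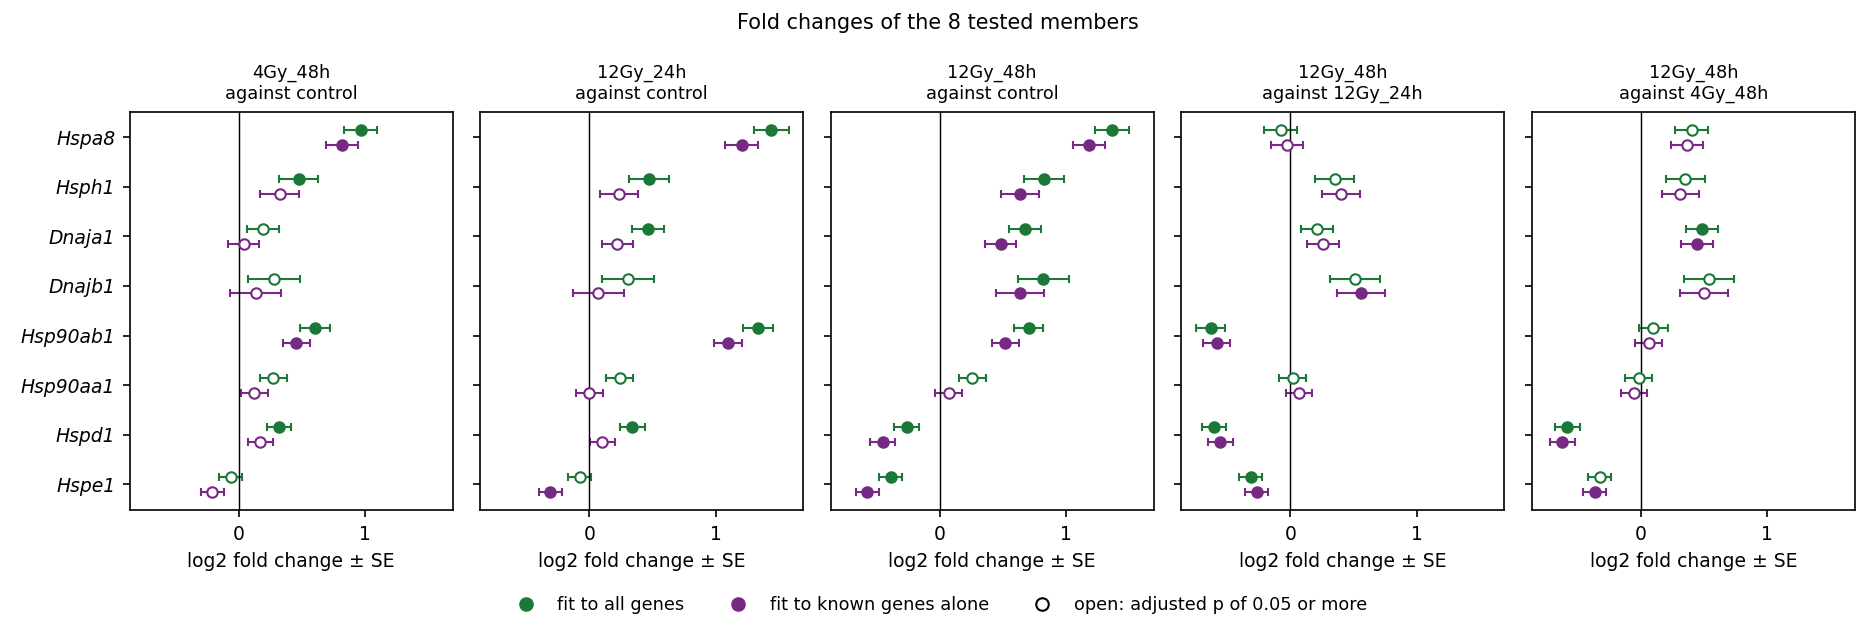
Log2 fold change ± SE of the 8 tested members in the 5 comparisons, from the fit to all genes (green) and to known genes alone (purple). Filled points passed at an adjusted p under 0.05: Hspa8 and Hsp90ab1 passed in both fits in all 3 comparisons with control, and Hsp90aa1 in none.

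The genes around the members were read from 8 lists of chaperones and their partners. The background shares given above, and the numbers of known genes beside them, hold for these lists too. At 12Gy_24h the list medians of log2 fold change were 0.35 for Hsp70 cochaperones, 0.35 for Hsp90 cochaperones, 0.36 for J-domain genes, 0.40 for small heat shock genes, 0.31 for chaperonins and 0.03 for mitochondrial genes, beside 0.23 over all known genes. At 12Gy_48h they were 0.21, 0.13, 0.23, 0.54, 0.07 and 0.01 in the same order, beside 0.20. The counts from known genes alone, which have a median near 0, stand beside each count for that reason. Of 5 tested heat shock factor genes and regulators, 0 passed against control in any group. Hsf1, the main heat shock factor, had means of 30.7 CPM in control and 34.2 in each irradiated group, and its log2 values of 0.15 to 0.16 against control did not pass and turned negative among known genes alone at 12Gy_24h (-0.09) and 12Gy_48h (-0.03). Hsf2 had group means of 2.75 to 3.90 CPM and passed nowhere.

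Among 10 Hsp70 cochaperone genes, 1, 5 and 4 were higher than control and 0 lower. With known genes alone these counts were 0, 1 and 2. Bag3, which links Hsp70 to small heat shock proteins and autophagy, rose from a mean of 11.2 CPM in control to 25.6 at 12Gy_48h, by 1.20 ± 0.18 (log2, SE; adjusted p = 0.000132, known-gene value 1.02). It rose by 0.78 at 12Gy_24h (0.00253), where the known-gene value was 0.54 (adjusted p = 0.0537). Bag1, a nucleotide exchange factor, was higher at 12Gy_48h than at 12Gy_24h by 0.72 ± 0.14 (adjusted p = 0.00133), while St13, which binds Hsp70, fell by 0.41 ± 0.11 (0.00929). The known-gene value of St13 was -0.36 (0.0176), lost without replicate 2 of either group (up to 0.102). At 48 h Bag3 was 0.71 higher after 12 Gy than after 4 Gy (adjusted p = 0.0309), a call lost without any 1 library of these groups other than 12Gy_48h replicate 3 (up to 0.144).

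Of 8 genes in the small heat shock list 5 were tested: 0, 2 and 2 were higher than control and 1, Hspb11, was lower each time. Among known genes alone 0, 1 and 1 were higher and 1 lower. Hspb1 was among the untested, with 7 reads in all libraries. Cryab, which holds unfolded proteins without ATP, rose from 37.0 CPM in control to 94.6 at 12Gy_24h (1.34 ± 0.21, adjusted p = 5.19e-05) and 85.0 at 12Gy_48h (1.19 ± 0.21, 0.000422). Known-gene values were 1.11 and 1.01 and passed. At 48 h it was 0.81 higher after 12 Gy than after 4 Gy (adjusted p = 0.0340), which did not pass without replicate 2 or 3 of either group (up to 0.128). Hspb11, which stands in this list by its name and is not taken here as a chaperone, was lower in all 3 comparisons with control. Its values were -0.43, -0.33 and -0.66, and it was lower also among known genes alone. Its call at 12Gy_24h was lost without any 1 library, and that at 4Gy_48h without control replicate 3 or 4Gy_48h replicate 1 or 2 (up to 0.208).

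Among 15 Hsp90 cochaperone genes, 2, 5 and 2 were higher than control, with 0 lower, and 0, 1 and 1 among known genes alone. Cdc37, which brings kinases to Hsp90, read 99.4 CPM in control, 199 at 12Gy_24h and 149 at 12Gy_48h. It rose by 1.00 ± 0.11 (adjusted p = 1.01e-06) and 0.59 ± 0.11 (0.000530) and fell by 0.42 ± 0.10 between the times (0.00658). Known-gene values of 0.77, 0.40 and -0.37 passed in each, the second not without control replicate 3 (0.0535). Between the times 5 of the 15 were lower and 0 higher, and 1 lower among known genes alone.

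The cytosolic chaperonin and prefoldin genes, which fold actin and tubulin, showed 3 of 13 higher than control at 4Gy_48h and 7 at 12Gy_24h, with 0 lower (known genes alone 0 and 3 higher). From 24 h to 48 h after 12 Gy 8 of 13 were lower and 0 higher, and among known genes alone 8 were lower and 1 higher. The chamber subunit gene Cct5 rose by 0.83 ± 0.12 at 12Gy_24h (adjusted p = 3.64e-05) and fell by 0.73 ± 0.12 between the times (0.000357), and Cct4 rose by 0.67 and fell by 0.59. The list's median between the times was -0.36, against -0.06 for all known genes. At 12Gy_48h against control 1 gene, Pfdn6, was higher and 1, Pfdn1, lower, while known genes alone gave 0 higher and 5 lower.

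Of 18 mitochondrial chaperone and protease genes, 0 passed at 4Gy_48h, 5 were higher and 2 lower at 12Gy_24h, and 1 was higher and 2 lower at 12Gy_48h. Known genes alone gave 0 higher and 4 lower at 12Gy_24h and 0 higher and 3 lower at 12Gy_48h. The matrix protease gene Lonp1 was lower at 12Gy_24h (-0.58 ± 0.13, adjusted p = 0.00174) and higher at 12Gy_48h than at 12Gy_24h (0.69 ± 0.13, 0.00111). Dnajc19, of the inner membrane, fell by 0.55 ± 0.10 at 12Gy_48h (0.000749). Hspa9, the mitochondrial Hsp70, was 0.29 higher at 12Gy_24h (adjusted p = 0.0485), and lost without control replicate 1 or 12Gy_24h replicate 1. Known genes alone did not give it (0.06, 0.797).

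Of 13 tested further J-domain genes, 1, 7 and 3 were higher than control and 0 lower, against 0, 1 and 2 among known genes alone. Dnajc5, of synaptic and secretory vesicles, rose by 0.49, 0.83 and 0.71 (known-gene values 0.34, not passed, 0.59 and 0.52), and Dnajb4 by 0.98 at 12Gy_24h and 1.13 at 12Gy_48h, of which known genes alone kept the second (0.94, adjusted p = 0.0212), except without control replicate 1 or 12Gy_48h replicate 2 or 3 (up to 0.0832). Of 3 tested further Hsp70 genes, 0, 2 and 1 were higher than control and 0 lower, against 0, 1 and 0 among known genes alone. Hspa4l, of the Hsp110 family, rose by 1.34 ± 0.21 at 12Gy_24h (adjusted p = 5.12e-05, known-gene value 1.10) and by 0.80 ± 0.21 at 12Gy_48h (0.00838), the second lost among known genes alone (0.62, adjusted p = 0.0509). Hspa4, of the same family, was 0.43 higher at 12Gy_24h (adjusted p = 0.0437), a call that known genes alone did not give (0.20, 0.439). Leaving out control replicate 3 or 12Gy_24h replicate 1 also ended it (up to 0.307).

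**Figure D5:**
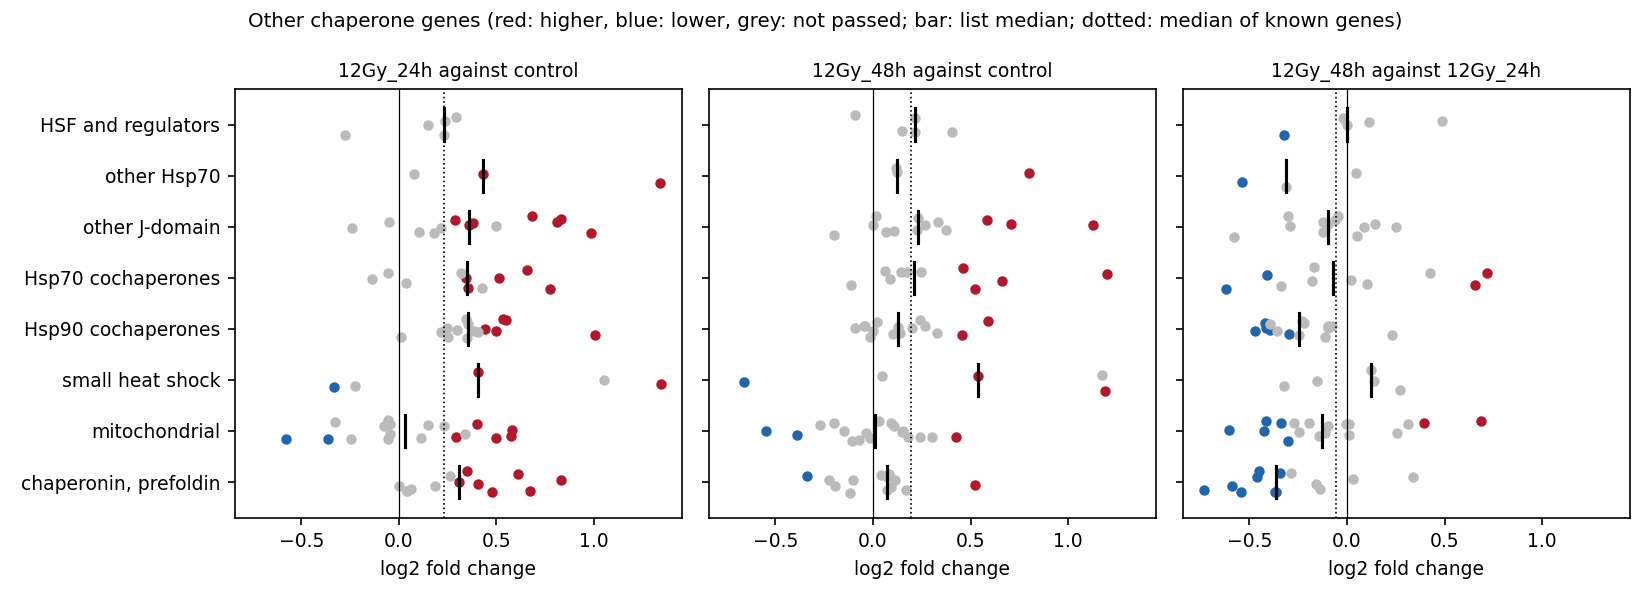
Log2 fold changes of the other chaperone genes by list, for 12Gy_24h and 12Gy_48h against control and for 48 h against 24 h after 12 Gy. Each point is a gene (red higher, blue lower, grey not passed, in the fit to all genes), the bar is the list's median and the dotted line the median of known genes. The chaperonin and prefoldin list lies lowest in the right panel, at -0.36.

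Among 6580 known genes with a mean of at least 10 CPM, the patterns over 12 libraries nearest to that of Hspa8, by root mean square difference of centred log2 CPM, were those of Lims2 (0.169), Fblim1 (0.225) and Ptges (0.226). The spread of Hspa8 itself was 0.594. Nearest to Hsph1 were Rab5c (0.107), Ap2b1 (0.113) and Tut7 (0.114), and nearest to Hspd1 were Ftsj3 (0.0788), Gtpbp4 (0.101) and Mccc1 (0.102).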

How the data were processed

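RNA of 12 MODE-K libraries was sequenced. Per the labels' protocols libraries followed an Illumina protocol, and per the submitters' processing notes adapters were trimmed with cutadapt 1.9 and reads checked with FastQC. New loci carry the prefix ONT in the table, so the platform is not settled. The sources used here do not give the aligner, the genome build, the annotation or the strandedness. The authors deposited raw read counts per gene and CPM, which differed by at most 4.78e-06 from counts over the column total. Other deposited columns hold the authors' log2 ratios and false discovery rates per comparison, used in no test here. Of 33636 lines, 11 were overflow of annotation text and were left out.

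Counts were fitted in R 4.3.3 with edgeR 4.0.16 (filterByExpr, TMM, quasi-likelihood test, 1 mean per group over 12 libraries, two-sided, Benjamini-Hochberg over 15086 genes). The biological coefficient of variation was 0.144. The fit was tested on simulated data. The fit to known genes alone used 9816 genes. The alternatives tried were leaving out the filter, keeping genes at 5 CPM or more in a group, RLE scaling, DESeq2 1.42.0, 2-group fits, a replicate block and 12 fits without 1 library. A fit of Hspa8 summed with the new locus, and known genes alone with the block or without each library, were chosen after seeing the data. Same-numbered libraries correlated from -0.24 to 0.19, with 3 of 18 over 0.1, so numbers were not taken as pairs. Named genes were the members, up to 4 called genes of each list by adjusted p in each comparison, and Hsf1, Hsf2, Hspb1, Hspa9, Trap1, Bag3 and Hspa4, of which the text gives a part. Members and lists were chosen with earlier results of these data known. Cct6a of the chaperonin list was not matched. Promoters are from RefSeq (GRCm38.p6), gene positions and coding sequences from GENCODE (GRCm38). The floors of 3 reads cover counting error only, while SDs and SEs carry the spread between libraries.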

Additional observations from a re-analysis of the deposited data

Results flagged for a closer look

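For 5 member results and 22 results of named other chaperone genes, levels differed between the times or the doses of irradiated cells by a direct test of that difference. Named were up to 4 called genes of each list in each comparison and a few genes named throughout, so further list genes also passed. Between the times 8 chaperonin and prefoldin genes and 5 Hsp90 cochaperone genes were lower, and of the mitochondrial list 2 were higher and 5 lower. No unirradiated cells were collected at 24 h or 48 h, so a difference between times cannot be told apart from time in culture. All values are log2 differences from the fit to all genes at an adjusted p under 0.05. At 48 h against 24 h after 12 Gy, Hsp90ab1 differed by -0.63, Hspd1 by -0.60 and Hspe1 by -0.31. At 48 h, 12 Gy against 4 Gy, Dnaja1 differed by 0.48 and Hspd1 by -0.58. Of these, Hspe1, Dnaja1 and the dose difference of Hspd1 were lost without 1 or more single libraries, as given with each gene.

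Between the times after 12 Gy, the chaperonin genes Cct5, Cct4, Cct2 and Cct8 differed by -0.73, -0.59, -0.54 and -0.45. Cdc37, a Hsp90 partner, differed by -0.42. Among Hsp70 partners, Bag2 differed by -0.62 and Bag1 and Bag6 by 0.72 and 0.66, and the mitochondrial protease gene Lonp1 by 0.69. These also passed among known genes alone and without any single library in either fit. St13 (-0.41), Htra2 (-0.61) and Timm44 (-0.43) passed in both fits, but among known genes alone not without certain single libraries (adjusted p up to 0.102, 0.0691 and 0.137).

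Other differences between the times were less stable. The Hsp90 partners Ppp5c (-0.47), Aarsd1 (-0.42) and Sugt1 (-0.30) did not pass among known genes alone (adjusted p = 0.0705, 0.0851 and 0.0838). Neither did Trap1 (-0.41, 0.0719), Hspa4l (-0.54, 0.0660) or Hsbp1 (-0.32, 0.0586). Among all genes these calls were lost without single libraries: Ppp5c up to 0.133 (12Gy_48h replicates 1, 2 and 3, 12Gy_24h replicate 1), Aarsd1 up to 0.143 (12Gy_48h replicates 1 and 2, 12Gy_24h replicates 1 and 3) and Sugt1 up to 0.105 (any 12Gy_48h library). Trap1 was lost up to 0.112 (12Gy_48h replicates 1 and 2, 12Gy_24h replicates 2 and 3), Hspa4l up to 0.148 (12Gy_48h replicates 2 and 3, 12Gy_24h replicates 1 and 3) and Hsbp1 up to 0.125 (12Gy_48h replicates 1 and 3). Hscb (0.39) passed among known genes alone (0.0202), but among all genes not without any 1 library other than 12Gy_48h replicate 3 (up to 0.176).

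Between the doses at 48 h, Cryab differed by 0.81, Bag3 by 0.71 and Dnajc19 by -0.48. All passed among known genes alone. The call of Dnajc19 was lost without 4Gy_48h replicate 1 or 3 or 12Gy_48h replicate 2 or 3 (up to 0.0894), and those of Cryab and Bag3 without the libraries named with them (up to 0.128 and 0.144).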

How the results depend on the processing

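The rises of Hspa8 against control at each dose and time and of Hsp90ab1 at both 12 Gy times, the falls of Hsp90ab1 and Hspd1 from 24 h to 48 h, and that of Hspe1 at 12Gy_48h against control kept direction and call in each alternative run. The other member calls were lost in at least 1 alternative.

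Genes called against control numbered 2649, 7238 and 4995 in the fit to all genes, 4825 between times and 707 between doses. With known genes alone, 4Gy_48h gave 130 genes and 2 members higher. 12Gy_24h gave 1674 genes, 2 members higher and 1 lower, with Hsf1 at -0.086. 12Gy_48h gave 1453 genes, with Hsf1 at -0.035, Hspa4 at -0.068 and Hspa9 at -0.0086. Between times there were 2330 genes and 1 member higher, and between doses 2 members lower. With RLE scaling, with DESeq2 and in fits of 2 groups, 2 members were higher at 4Gy_48h and 2 lower between doses. Between times, Hsp90aa1 was at -0.056, -0.056 and -0.0065 in these and Hsf1 at -0.075, -0.075 and -0.026. Fits of 2 groups left 1 member lower at 12Gy_48h and 1 higher between times. RLE scaling and DESeq2 each gave 6 members higher at 12Gy_24h, where the main fit gave 5. With no filter, Hspe1 was at 0.011 at 4Gy_48h and 0.081 at 12Gy_24h, 1 member was lower at 12Gy_48h, where Trap1 was at 0.060, and between times Hsp90aa1 was at -0.062 and Hsf1 at -0.082. Between doses it gave 1113 genes, 2 members higher and 2 lower. Against control, leaving out the filter gave 5, 7 and 6 members higher. The 7 at 12Gy_24h were all tested members but Hspe1, so Hsp90aa1 was among them. With a mean of 5 CPM, 2 members were lower between doses and Hsf1 was at -0.0081 between times.

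Replicate numbers did not pair the libraries. With the replicate block 1 member was lower at 12Gy_48h, and Hsf1 was at -0.00023 between times and 0.0032 between doses. Hsph1 at 4Gy_48h and Hspd1 at 12Gy_48h lost their calls. The replicate block gave 2384, 7096 and 4713 genes against control. With known genes alone and the replicate block, 4Gy_48h gave 99 genes, 1 member higher and Hsf1 at -0.0043. 12Gy_24h gave 1540 genes, 2 members higher, 1 lower and Hsf1 at -0.089. 12Gy_48h gave 1356 genes, Hsf1 at -0.038, Hspa4 at -0.064 and Hspa9 at -0.0087. Between times it gave 2227 genes and 1 member higher, and between doses 2 members lower.

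Leaving out 1 library in either fit gave these ranges. At 4Gy_48h there were 43 to 2980 genes and 1 to 4 members higher, with Dnaja1 at -0.086 to 0.31, Hspe1 at -0.27 to 0.023, Hsf1 at -0.19 to 0.28, Hsf2 at -0.44 to 0.083 and Hspa9 at -0.085 to 0.33. At 12Gy_24h there were 1038 to 7860 genes, 2 to 6 members higher and 0 to 1 lower. Values there were -0.094 to 0.37 for Hsp90aa1, -0.082 to 0.52 for Dnajb1, -0.022 to 0.49 for Hspd1, -0.37 to 0.052 for Hspe1, -0.15 to 0.27 for Hsf1, -1.12 to 0.20 for Hsf2, -0.063 to 0.72 for Hspa4 and -0.092 to 0.51 for Hspa9. At 12Gy_48h there were 768 to 4872 genes, 2 to 6 members higher and 1 to 2 lower. Values there were -0.026 to 0.36 for Hsp90aa1, -0.092 to 0.26 for Hsf1, -0.42 to 0.53 for Hsf2, -0.13 to 0.21 for Hspa4, -0.26 to 0.10 for Trap1 and -0.16 to 0.30 for Hspa9. Between times there were 1273 to 4647 genes and 0 to 1 members higher, with Hspa8 at -0.23 to 0.029, Hsp90aa1 at -0.083 to 0.13, Hsf1 at -0.094 to 0.13 and Hspa9 at -0.30 to 0.0095. Between doses there were 67 to 473 genes, 0 to 1 members higher and 0 to 2 lower. Values there were -0.14 to 0.048 for Hsp90aa1, -0.021 to 0.17 for Hsp90ab1, -0.16 to 0.21 for Hsf1, -0.12 to 0.64 for Hsf2 and -0.13 to 0.017 for Hspa9.

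No value that changed sign passed in the alternative. Of those that did, Hspd1, Hspa9 and Hspa4 at 12Gy_24h had passed among all genes, and they turned when known genes alone were fitted without a library. Hspa1a, Hspa1b and Hspb1 had too few counted reads to enter the test, and whether depth or the assignment of reads set this was not tested. The cause was not tested for any of these changes.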

Other observations

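In the authors' deposited table, Hspa8 had log2 fold changes against control of 1.00 (4Gy_48h), 1.51 (24 h after 12 Gy) and 1.41 (12Gy_48h), and Hsp90ab1 of 0.66, 1.41 and 0.76. In the authors' deposited table Hspd1 and Hspe1 at 12Gy_48h against control were at -0.19 (adjusted p = 0.387) and -0.31 (0.0637), while from 24 h to 48 h after 12 Gy they were at -0.70 (1.5e-11) and -0.42 (0.000134).

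Cct6a, a chaperonin subunit gene, was not found by symbol among known genes, while the new locus ONT.15489, with a Cct6a match in Swiss-Prot, held 12943 reads. Another new locus, ONT.8417, matched Hsp90ab1 and held 62 reads, against 55542 for Hsp90ab1.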
